A study of Drosophila melanogaster with 8 samples.

Results

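The 6 genes described here are the core of fibroblast growth factor (FGF) signalling in Drosophila. They were chosen from the gene annotation by name, with earlier results of these data known. They are the ligand genes bnl, pyr and ths, the receptor genes btl and htl, and stumps, which encodes the receptors' cytoplasmic adaptor. All 6 were among the 13998 genes tested, so that no member was lost to a filter. RNA polymerase II (Pol II) occupancy was measured by targeted DamID, which uses a bacterial methyltransferase (Dam). Expressed alone or joined to Pol II, Dam methylates GATC sites near where it sits. Dam was expressed in terminal tracheal cells, the branched cells that carry air to the adult midgut, and DNA was taken from whole midguts with these cells attached.

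All flies were w-, had dSRF-GAL4 together with UAS-CD8GFP (a membrane-bound GFP) over a wild-type chromosome, and carried tub-GAL80ts, a temperature-sensitive inhibitor of GAL4. Opposite tub-GAL80ts lay UAS-LT3-Dam in the control groups and UAS-LT3-Dam-Pol II in the others. Flies were raised at 18 °C, aged for 7 days and held at 29 °C for 24 hours. For the last 16 hours they were fed sucrose alone (Suc, the control intestine of the labels) or sucrose with a bacteria solution named Pe (the damaged intestine). There were 8 samples in 4 groups of 2, namely Dam alone or Dam-Pol II under Suc or Pe, each sample from 60 pooled midguts. Every pair of Dam-Pol II and Dam samples is represented by 1 profile, which left 2 Suc and 2 Pe profiles. The driver is the serum response factor line, and any other cell of the dissected gut in which it is active adds to the signal. Fewer labelled cells and less Pol II per cell cannot be told apart in such bulk profiles.

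FGF ligands bind receptor tyrosine kinases on nearby cells, and the adaptor couples the active receptor to the Ras and MAP kinase cascade. In the tracheal system bnl is made by tissues around the airways and attracts branches whose cells carry the btl receptor. The same ligand and receptor drive terminal branching, in which low oxygen in a target tissue raises bnl. The ligands pyr and ths act instead through htl, which is best known for its part in spreading and patterning the mesoderm and in muscle and glia. The adaptor stumps serves both receptors.

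A gene's level is given as the mean log2 ratio of Dam-Pol II to Dam across its GATC fragments, weighted by the length of overlap. It is a level per length that averages peaks with the stretches between them, so comparisons between genes depend on this choice. With the median of the fragments instead, the Suc mean went from 0.97 to 0.35 at btl and from 1.30 to 1.13 at stumps. A gene or fragment is called occupied when its group mean is above 0 in limma's one-sided test at a Benjamini-Hochberg adjusted p under 0.05. The profiles hold no counts, so the depth behind a value is unknown and precision rests on 2 profiles a condition. The profiles differed in shape: 15.2% and 15.8% of fragments were at 0 in the Suc profiles, and 16.7% and 26.0% in Pe replicates 1 and 2. The 95th percentile of fragment values was 2.04 in Suc replicate 2 and 1.23 to 1.42 in the others.

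The adaptor and the tracheal receptor were the occupied members. In Suc 2 of the 6 genes, stumps and btl, were called occupied, where 21.3% of all genes tested were. In Pe 1 of the 6, stumps, was called, against a background of 7.53%. No member differed between the conditions at an adjusted p under 0.05 in limma's two-sided test, as none of the 13998 genes did (0%). At an unadjusted p under 0.05 there was 1 member, btl, lower in Pe, among 319 genes (2.28%) lower and 551 genes (3.94%) in either direction. At bnl and ths both Pe values exceeded both Suc values (23.0% of all genes), and at btl both were lower (14.0%), while the groups overlapped at pyr, htl and stumps. The genes btl and stumps were above 0 in all 4 profiles, as were 37.8% of all genes.

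**Figure D1:**
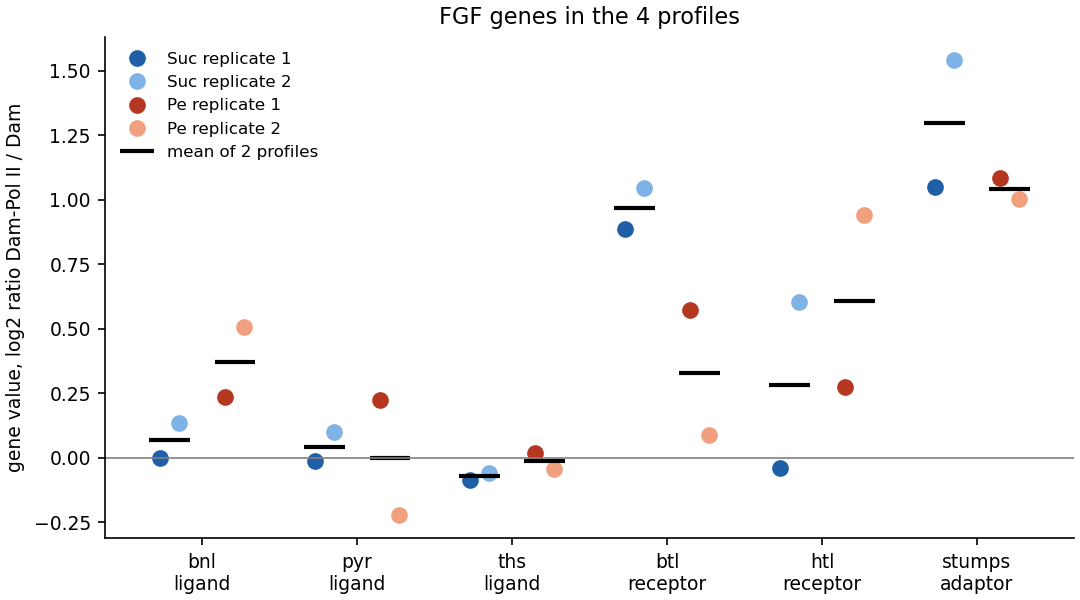
Gene level of the 6 FGF genes, as the length-weighted mean log2 ratio of Dam-Pol II to Dam (vertical axis), in each of the 4 profiles (points), with the mean of each condition (black lines). The adaptor gene stumps lies at 1.002 or above in all 4 profiles, btl is lower in both Pe profiles than in both Suc profiles, and the ligand genes pyr and ths lie between -0.22 and 0.22.

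Of the ligand genes, bnl had the higher level. The gene spans 42745 bp of chromosome 3R (BDGP 6, 19794073 to 19836817) and 156 fragments. Its level was -0.00064 and 0.13 in Suc replicates 1 and 2, and 0.24 and 0.51 in Pe replicates 1 and 2. The Pe profiles were thus the higher pair, and the gap between the nearest profiles of the 2 conditions was 0.10. The mean was 0.067 ± 0.096 in Suc and 0.37 ± 0.19 in Pe (SD, n = 2), a difference of 0.30 (SE 0.12, 95% interval -0.058 to 0.67; limma adjusted p = 0.896). It was not called occupied in Suc (limma adjusted p = 0.523) or in Pe (limma adjusted p = 0.0627). The Pe mean passed after quantile normalization (0.40) and with median and MAD scaling (0.45), and its limma adjusted p ran from 0.0106 to 0.309 over the alternatives. Leaving out Pe replicate 2 gave a difference of 0.17, and leaving out Pe replicate 1 gave 0.44.

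Along bnl the signal stood in separate blocks. The table used here gives no strand, so positions are counted from the gene's lower-coordinate end. Between 13.7 and 16.5 kb, 8 fragments in a row were above 0.5 in every profile, with means of 1.67 in Suc and 1.64 in Pe. A further block from 37.5 to 40.1 kb had 1.61 in Suc and 1.69 in Pe. In both blocks these means were closer together than the replicates of either condition, such as 1.14 and 2.20 in Suc in the first block. Of the 156 fragments, 24 were above 0.5 in every profile (8.67% of all fragments). The highest fragment, 1062 bp long and centred at 14.2 kb, stood at 1.45 and 3.27 in Suc and at 1.47 and 2.88 in Pe. The lowest, at 10.4 kb, was below 0 in all profiles, with means of -1.13 in Suc and -1.01 in Pe.

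The higher Pe level of bnl lay mostly outside both of these blocks, though not only in stretches of low signal. From 40.5 to 41.7 kb, 4 fragments in a row were above 0.5 in every profile, with means of 0.70 in Suc and 1.23 in Pe. Both Pe profiles were above both Suc profiles at 77 fragments (49.4% of the gene's fragments, 25.8% of all fragments), and 62 of those 77 had a Suc mean below 0. Over all fragments separated in that direction, 91.7% had a Suc mean below 0. From 3.2 to 8.7 kb, for example, 13 fragments in a row had a mean of -0.34 in Suc and 0.016 in Pe. Divided into 5 windows of equal length, bnl was higher in Pe in all of them, by 0.18 to 0.49. The window at the higher-coordinate end was the highest, with 0.42 and 0.67 in Suc and 0.69 and 1.38 in Pe, so that its groups did not overlap. The fragment over that end stood at 1.24 and 2.23 in Suc and 1.59 and 2.31 in Pe, and the one over the lower-coordinate end at -0.93 and -0.69 in Suc and -0.27 and 0.47 in Pe.

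A short stretch of bnl went the other way. From 27.4 to 28.0 kb, 3 fragments had a mean of 2.11 and 2.98 in the Suc profiles, 1.67 in Pe replicate 1 and 0.11 in Pe replicate 2. This was the largest block of the 4 fragments of bnl at which both Pe profiles were below both Suc profiles. In the fragment test no member fragment differed between the conditions at an adjusted p under 0.05 (0 of 338828 fragments, 0%), while 25 fragments of bnl had an unadjusted p under 0.05 (6.63% of all fragments). Neighbouring fragments are not independent, since their values had a mean correlation of 0.831 over profiles.

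**Figure D2:**
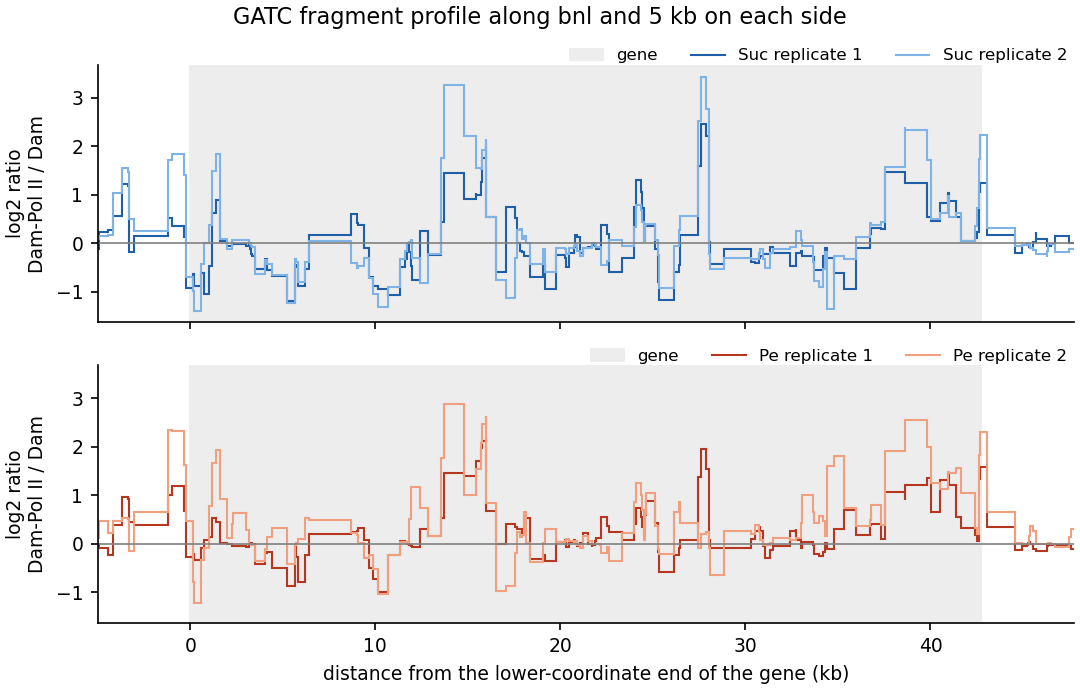
Log2 ratio of Dam-Pol II to Dam of each GATC fragment (vertical axis) along bnl and 5 kb on each side, by distance in kb from the gene's lower-coordinate end (horizontal axis), in the Suc profiles (upper panel) and the Pe profiles (lower panel), with the gene shaded. Blocks near 14 and 38 kb stand up in all 4 profiles, while the peak near 28 kb is low in Pe replicate 2 and the stretches between blocks lie lower in Suc.

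The other ligand genes carried little signal. The gene pyr (2R, 11712263 to 11726345, 14083 bp, 33 fragments) had a level of -0.013 and 0.098 in Suc and of 0.22 and -0.22 in Pe. The Pe replicates lay on either side of both Suc values, and the difference was -0.043 (SE 0.19, 95% interval -0.61 to 0.52; limma adjusted p = 0.977). The fragment of 310 bp over its lower-coordinate end, its highest, was at 1.23 and 1.98 in Suc and 1.33 and 1.33 in Pe, and it was the only fragment of pyr above 0.5 in every profile. The next, of 1709 bp, had 0.47 and 0.67 in Suc and 0.57 and 0.65 in Pe.

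The gene ths (2R, 11756817 to 11814424, 57608 bp, 151 fragments) lay 30471 bp from pyr and was the lowest member in Suc. Its level was -0.086 and -0.058 in Suc and 0.019 and -0.045 in Pe, so the groups were separated by only 0.013. The difference was 0.059 (SE 0.044, 95% interval -0.071 to 0.19; limma adjusted p = 0.898). Of its 151 fragments, 59 (39.1%, against 25.8% of all fragments) had both Pe profiles above both Suc profiles. At 21 (13.9%, against 12.2% of all fragments) they were below. Of the 59, 57 had a Suc mean below 0, as had 91.7% of all fragments separated in that direction. The highest fragment, at 52.0 kb, stood at 0.65 and 1.81 in Suc and 0.90 and 1.20 in Pe. The genes CG13193, CG42493 and Ir48c lie within ths, share 16 of its fragments and were not called occupied.

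Of the receptor genes, btl was the one occupied in Suc. It spans 7458 bp of chromosome 3L (14075772 to 14083229) with 41 fragments. Its level was 0.89 and 1.05 in Suc replicates 1 and 2, and 0.57 and 0.09 in Pe replicates 1 and 2. Both Pe values were lower than both Suc values by at least 0.31, and the Pe replicates were farther apart than the Suc replicates. The mean was 0.97 ± 0.11 in Suc (limma adjusted p = 0.0269) and 0.33 ± 0.34 in Pe (limma adjusted p = 0.154; SD, n = 2). The difference was -0.64 (SE 0.21, 95% interval -1.26 to -0.016; limma adjusted p = 0.896), and 3.59% of all genes had a lower difference. It was -0.88 without Pe replicate 1, -0.39 without Pe replicate 2 and -0.20 with the median of the fragments. After quantile normalization the difference was -0.50 (SE 0.25), and with median and MAD scaling it was -0.43 (SE 0.25). The Suc call of btl was lost on leaving out Pe replicate 1, Pe replicate 2 or Suc replicate 2 and with the median of the fragments (Suc mean 0.35), and its limma adjusted p ran from 0.0175 to 0.135 over the alternatives. Without Pe replicate 1 or Pe replicate 2, 0 of the 13998 genes were called in either condition, and without Suc replicate 2 there were 846 in Suc.

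The lower level of btl in Pe lay in the same part of the gene as its signal. Both Pe profiles were below both Suc profiles at 22 of its 41 fragments (53.7%, against 12.2% of all fragments) and above them at 0. From 1.79 to 3.855 kb, a run of 8 fragments was above 1 in both Suc profiles (7.47% of all fragments), at 2.05 and 2.59, and stood at 1.27 and 0.73 in Pe. Since that run was taken from high Suc values, windows fixed by length are the fairer view. In window 2 of 5 equal windows btl stood at 1.69 and 2.43 in Suc and 1.24 and 0.69 in Pe, and in window 3 at 1.76 and 1.74 in Suc and 0.84 and 0.22 in Pe. The last 2 windows had Suc means of 0.19 and 0.17 and Pe means of -0.040 and 0.0060, so most of the difference was in the windows with most signal.

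Part of that run still carried signal in Pe. The fragment of 932 bp centred at 2.75 kb, the highest of btl, stood at 1.75 and 3.10 in Suc and 1.35 and 1.22 in Pe, and was the only fragment of btl above 1 in both Pe profiles (5.51% of all fragments). The largest difference downwards was in a fragment of 22 bp at 3.79 kb, with 2.85 and 2.13 in Suc and 1.22 and -0.49 in Pe. Outside the gene, the flanks of 5 kb had means of 0.11 and 0.084 in Suc and -0.086 and -0.16 in Pe. The formin-like gene Frl, on the lower-coordinate side of btl, was called occupied in both conditions, at 0.68 in Suc and 0.57 in Pe.

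**Figure D3:**
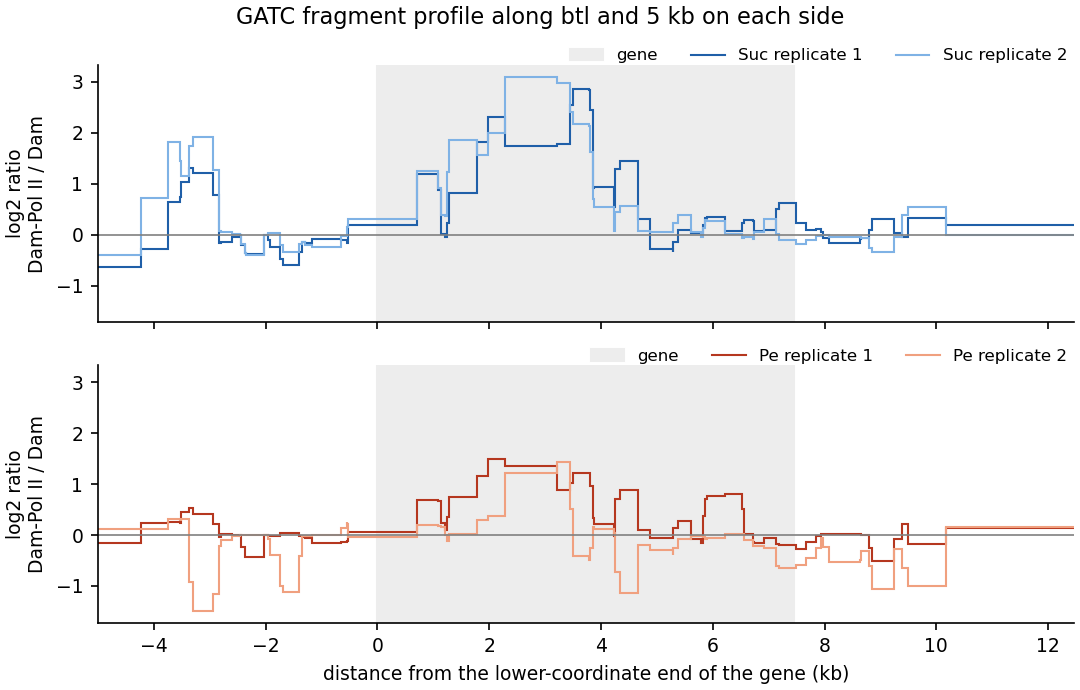
Log2 ratio of Dam-Pol II to Dam of each GATC fragment (vertical axis) along btl and 5 kb on each side, by distance in kb from the gene's lower-coordinate end (horizontal axis), in Suc (upper panel) and Pe (lower panel), with the gene shaded. The run from 1.79 to 3.855 kb has a mean of 2.32 in Suc and 1.001 in Pe.

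Markers of the cells a midgut could hold were read beside btl. Over all genes tested, 21.3% were called in Suc and 7.53% in Pe. Both Pe profiles were below both Suc profiles at 14.0% of all genes, and the median difference between Pe and Suc was 0.018. Of 12 tracheal markers, 5 (bs, kni, esg, Gasp and pio) were called in Suc and 0 in Pe, and all 12 had a lower mean in Pe, 9 of them with both Pe profiles below both Suc profiles. Their summed log2 ratio was 5.39 and 8.84 in Suc and 3.74 and -1.88 in Pe. The trh gene, which sets tracheal identity, had 0.37 ± 0.06 in Suc, had -0.16 ± 0.46 in Pe and was called in neither. Of 9 enterocyte markers, 6 were called in Suc and 1 in Pe, and their summed ratio was 13.7 and 12.1 in Suc and 9.51 and 5.17 in Pe. Of 10 visceral muscle markers, 4 were called in Suc and 0 in Pe, with sums of 3.94 in each Suc profile and 0.755 and 3.54 in Pe. Of these lists 6 of the 9 enterocyte and 7 of the 10 visceral muscle markers had a lower mean in Pe. Of 5 stem cell and enteroblast markers, 2 (esg and E(spl)mbeta-HLH) were called in Suc and 0 in Pe, with sums of 2.03 and 2.26 in Suc and 0.53 and 0.11 in Pe, and 3 of the 5 had a lower mean in Pe. None of the enteroendocrine, haemocyte, fat body and neuron markers was called in either condition, 1 of the 6 enteroendocrine markers had a lower mean in Pe, and no marker was at exactly 0. Both Pe profiles were below both Suc profiles at 5 enterocyte, 3 visceral muscle and 3 stem cell and enteroblast markers as well. They were also below at 1 haemocyte and 1 fat body marker, and at 0 enteroendocrine and 0 neuron markers. The median difference was -0.45 for tracheal, -0.69 for enterocyte, -0.19 for visceral muscle and -0.064 for stem cell and enteroblast markers. For the other lists it ran from -0.013 to 0.075. The part of these shifts in the btl result was not tested.

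The other receptor gene, htl (3R, 18045216 to 18052984, 7769 bp, 45 fragments), differed more between the replicates of a condition than between the condition means. Its level was -0.039 in Suc replicate 1 and 0.60 in Suc replicate 2, 0.28 in Pe replicate 1 and 0.94 in Pe replicate 2. The groups overlapped, and both replicates numbered 2 were above both others, though the labels tie no batch to these numbers. The mean was 0.28 ± 0.45 in Suc and 0.61 ± 0.47 in Pe (SD, n = 2), with a difference of 0.33 (SE 0.36, 95% interval -0.76 to 1.41; limma adjusted p = 0.916). It was not called occupied in Suc (limma adjusted p = 0.393) or Pe (limma adjusted p = 0.142). The Pe mean passed after quantile normalization (0.65; limma adjusted p from 0.0163 to 0.559 over the alternatives). Leaving out 1 profile gave differences from -0.0065, with Pe replicate 2 removed, to 0.66, with Pe replicate 1 removed.

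The signal of htl lay in its middle. In window 3 of 5 it stood at 0.45 and 1.50 in Suc and 0.69 and 1.74 in Pe, and in the next at 0.11 and 1.62 in Suc and 0.77 and 1.86 in Pe. Its highest fragment, 280 bp at 5.07 kb, stood at 0.39 and 2.98 in Suc and 1.77 and 3.76 in Pe. The level of btl was above that of htl in 3 of the 4 profiles, by 0.93 and 0.44 in Suc and 0.30 in Pe replicate 1, and below it by 0.85 in Pe replicate 2 (difference -0.85). Both neighbours of htl, CG7794 and bard, lay below 0 in all profiles.

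The adaptor gene stumps had the highest level of the 6 in every profile. It spans 30863 bp of chromosome 3R (14577217 to 14608079) with 110 fragments. Its level was 1.05 and 1.54 in Suc and 1.08 and 1.002 in Pe, which put it between the 88.1 and 92.8 percentiles of all genes. The profiles of the 2 conditions overlapped. The mean was 1.30 ± 0.35 in Suc (limma adjusted p = 0.0229) and 1.04 ± 0.06 in Pe (limma adjusted p = 0.0458; SD, n = 2). The difference was -0.25 (SE 0.20, 95% interval -0.84 to 0.34; limma adjusted p = 0.898), and it turned to 0.040 after quantile normalization and 0.15 with median and MAD scaling. The Suc and Pe calls of stumps were both lost without either Pe replicate, when 0 of the 13998 genes were called. The Pe call was also lost with the median of the fragments (0.88) and with fragments of no other gene (1.03), its limma adjusted p running from 0.00197 to 0.304 over the alternatives, and that of the Suc call from 0.00236 to 0.0931.

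Signal covered most of stumps. Of its 110 fragments, 58 were above 0.5 in every profile and 86 above 0 (18.1% of all fragments), while at bnl 45 of 156 were above 0. The longest run above 0.5, 7639 bp from 15.485 to 23.124 kb, had means of 1.92 in Suc and 1.61 in Pe. A further run over the lower-coordinate end reached to 4.852 kb, with 2.13 in Suc and 1.35 in Pe. All 5 windows had a mean above 0.5 in both conditions, and the window at the lower-coordinate end was the highest in Suc, at 1.40 and 2.15, against 1.27 and 1.03 in Pe. In window 2 the mean was 0.83 in both conditions, and in window 4 it was 1.37 in Suc and 1.35 in Pe.

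Within stumps the conditions separated in parts. Both Pe profiles were below both Suc profiles at 34 fragments (30.9%, against 12.2% of all fragments). They were above at 12 (10.9%, against 25.8% of all fragments). Of the 34, 30 had a Suc mean above 1 and all had one above 0. Over all fragments separated downwards, 80.1% had a Suc mean above 0. The largest difference downwards, in a fragment of 195 bp at 0.34 kb, was between 2.28 and 3.48 in Suc and 1.36 and 0.96 in Pe. The lncRNA:CR46153 gene lies within the longest run, on a single fragment, at 1.81 and 1.65 in Suc and 1.81 and 1.53 in Pe, and the 2 genes cannot be told apart there. Outside stumps, CG44094 on the lower-coordinate side had 0.28 in Suc and 0.67 in Pe and was not called, and CG14853 lay at -0.18 in Suc and -0.038 in Pe.

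Of the 536 fragments of the 6 genes, 20 were called occupied in Suc at an adjusted p under 0.05 in limma's one-sided test (1.34% of all fragments). They were 14 of stumps, 5 of bnl and 1 of btl. In Pe no fragment of any gene was called (0%), while 145 of the members' fragments had an unadjusted p under 0.05 (14.9% of all fragments). Without any 1 of the 4 profiles, 0 member fragments were called in Suc, as were 0 of all 338828 fragments.

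**Figure D4:**
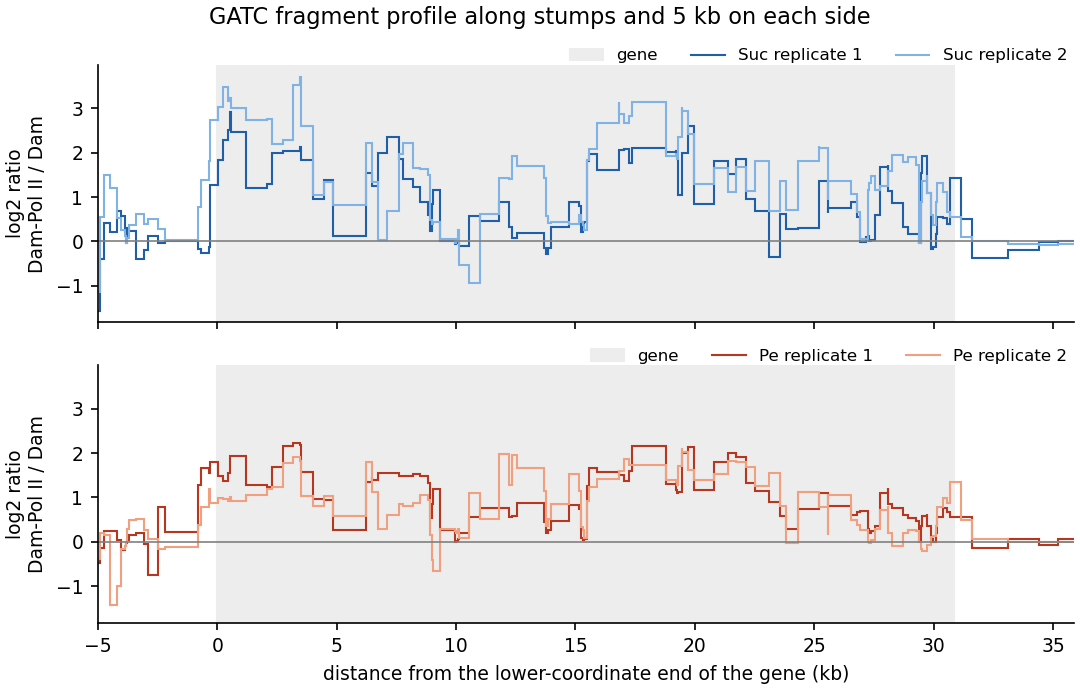
Log2 ratio of Dam-Pol II to Dam of each GATC fragment (vertical axis) along stumps and 5 kb on each side, by distance in kb from the gene's lower-coordinate end (horizontal axis), in Suc (upper panel) and Pe (lower panel), with the gene shaded. The runs up to 4.852 kb and from 15.485 to 23.124 kb are above 0.5 in all 4 profiles.

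The order of the 6 genes was stumps, btl, htl, bnl, pyr and ths by the Suc mean, and stumps, htl, bnl, btl, pyr and ths by the Pe mean. The level of stumps was above that of btl in all 4 profiles, by 0.16 and 0.50 in Suc and 0.51 and 0.92 in Pe. It exceeded htl by 1.09 and 0.94 in Suc and 0.81 and 0.062 in Pe. The step from htl to bnl changed sign between the Suc replicates (-0.038 and 0.47), so these neighbours did not differ beyond their spread. The level of bnl was above that of pyr in all profiles, by 0.012 and 0.036 in Suc and 0.014 and 0.73 in Pe. In Suc replicate 2 was above replicate 1 at all 6 genes, and in Pe at 2 of them.

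Genes most like each member over the 4 profiles were taken by the smallest mean absolute difference. For btl these were CG11076, sug and ITP, at 0.054 to 0.066. For stumps they were ND-39, DCTN2-p50 and mRpL2 (0.037 to 0.044), and for htl CG6511, yata and ebd2 (0.029 to 0.037). For bnl they were Gyg, 5-HT7 and Prosalpha5 (0.014 to 0.042). The genes nearest to pyr were CG46339, lncRNA:CR45962 and Ten-m (0.020 to 0.024), and those nearest to ths CG13700, CG1468 and CG33308 (0.0057 to 0.010).

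The rest of the pathway was read from 5 lists that held 45 tested genes. None differed between the conditions at an adjusted p under 0.05. Of the 45, 12 were occupied in Suc (21.3% of all genes) and 2 in Pe (7.53% of all genes). Both Pe profiles were above both Suc profiles at 10 (23.0% of all genes) and below them at 7 (14.0%). The median of the 45 Suc means was 0.39 and that of the Pe means 0.22, beside 0.038 and 0.073 over all genes tested. The medians of the 6 FGF genes were 0.17 in Suc and 0.35 in Pe.

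Of 16 genes that relay the receptor signal or act at its end, 6 were called in Suc (21.3% of all genes). They were csw, the SHP2-type phosphatase (1.52 ± 0.55), Rho1, a GTPase (1.22 ± 0.68), aop, an ETS repressor (1.01 ± 0.41), and bs, the serum response factor (0.99 ± 0.20). The others were Dsor1, the MAP kinase kinase (0.77 ± 0.18), and drk, the adaptor that brings Sos to receptors (0.75 ± 0.33). In Pe 1 gene was called (7.53% of all genes), Rac1, a GTPase of the cytoskeleton, at 0.82 ± 0.01 (limma adjusted p = 0.0462). It narrowly missed the threshold in Suc (limma adjusted p = 0.0513). Raf, Dsor1 and aop narrowly missed it in Pe (limma adjusted p = 0.0519, 0.0526 and 0.0556). The lowest in Suc was rl, the MAP kinase gene, at -0.45 ± 0.10, which also had the largest difference upwards, 0.35 (SE 0.14). The largest downwards was at csw, -0.68 (SE 0.31), while bs had -0.58 (SE 0.16).

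Among 7 feedback genes 1 was called in Suc (21.3% of all genes) and 1 in Pe (7.53% of all genes). In both conditions it was Mkp3, a MAP kinase phosphatase, at 0.42 ± 0.15 in Suc and 0.48 ± 0.01 in Pe. The highest and lowest in Suc were edl, an ETS regulator, at 0.69 ± 0.31, and Nf1, a Ras GTPase-activating protein, at -0.51. The inhibitor gene aos had 0.42 ± 0.34 in Suc and 0.87 ± 0.41 in Pe, but all 46 of its fragments overlap another gene. The FGF inhibitor sty stood at 0.65 ± 0.45 in Suc and 0.28 ± 0.38 in Pe.

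Heparan sulphate chains hold FGF at its receptor, and 15 genes of their synthesis and carriers were tested. Of these, 2 were called in Suc (21.3% of all genes). They were sgl, a UDP-glucose dehydrogenase (1.85 ± 0.92), and frc, a transporter of UDP-sugars (1.56 ± 0.61), whose 21 fragments all overlap another gene. Their Pe means were 1.73 ± 0.43 and 1.12 ± 0.19, and no gene of the list was called in Pe (7.53% of all genes). Both Pe profiles were above both Suc profiles at 6 of the 15 (23.0% of all genes) and below at 0 (14.0% of all genes). The largest differences were 0.16 at botv, an exostosin-like gene, and -0.44 at frc, and Hs3st-B, a sulphotransferase gene, was lowest in Suc at -0.30 ± 0.06.

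Of the 4 genes through which oxygen controls bnl, 3 were called in Suc (21.3% of all genes) and 0 in Pe (7.53% of all genes). Vhl, which marks the hypoxia factor for degradation, stood at 1.08 ± 0.06 in Suc and 0.88 ± 0.49 in Pe. Hph, the oxygen-sensing prolyl hydroxylase, had 0.91 ± 0.22 and 0.63 ± 0.23, and sima, the hypoxia factor, 0.48 ± 0.16 and 0.39 ± 0.05. Its partner tgo lay at -0.023 ± 0.50 and -0.28 ± 0.53. All 4 had a lower mean in Pe, and in none were the groups separated.

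The 4 regulators of btl are trh and tgo, which act as a dimer on its gene, the POU factor vvl and the BTB protein rib. None was called in Suc (21.3% of all genes) or in Pe (7.53% of all genes). The highest in Suc, vvl, stood at 0.50 and 0.79 in Suc and 0.26 and -0.44 in Pe, and the trh gene at 0.33 and 0.40 in Suc and 0.16 and -0.48 in Pe. At both, as at btl, the Pe profiles were below the Suc profiles, and Pe replicate 2 was the lowest of the 4. At rib, lowest in Suc with -0.20 and -0.24, the Pe profiles were above, at -0.16 and -0.036.

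**Figure D5:**
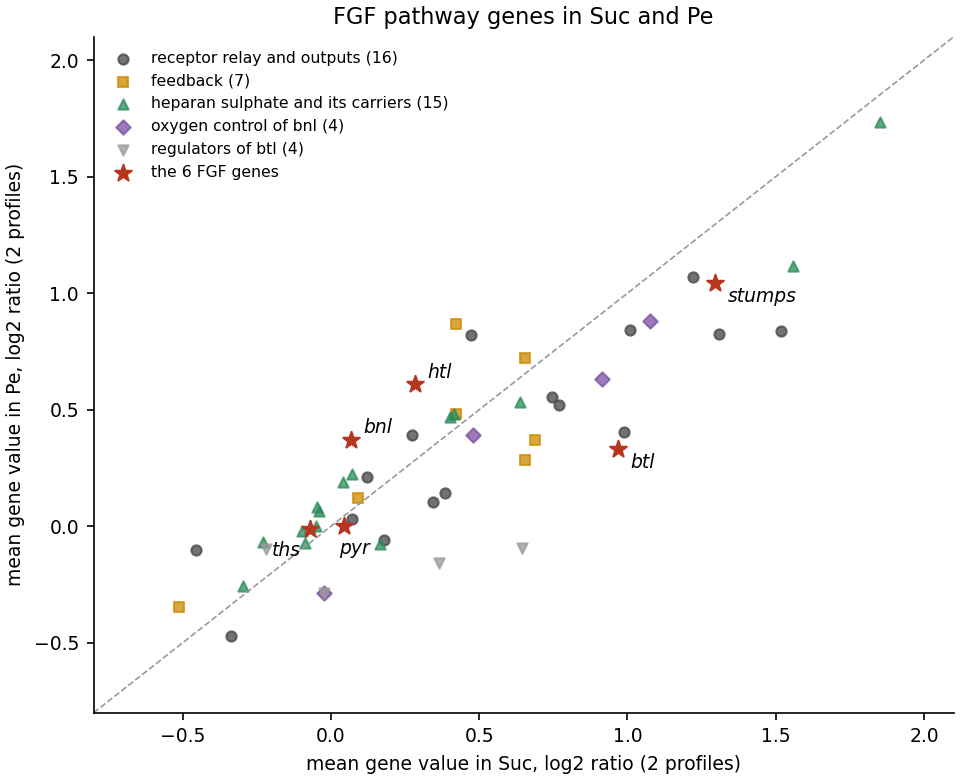
Mean gene level in Pe (vertical axis) against that in Suc (horizontal axis), each the mean log2 ratio of 2 profiles, for the 6 FGF genes (stars) and the tested genes of 5 pathway lists, with the line of equality dashed. The stars of btl and stumps lie below the line and those of bnl and htl above it, and no gene shown differed at an adjusted p under 0.05.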

How the data were processed

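The deposited profiles give 1 value per GATC fragment, which its range and values below 0 mark as the log2 of Dam-Pol II divided by Dam; the sources used here give no aligner, scaling or ratio step. The build is BDGP 6, per the submitters' processing notes. The track of Suc replicate 2 carries another number, and its replicate number came from the labels. Of 383682 fragments, 28 mitochondrial ones were left out and 338828 not at 0 in every profile were tested. Gene positions came from RefSeq, Release 6, which gives no strand here, so both end fragments of a gene are described in place of its start. Genes (protein coding and lncRNA) needed at least 3 fragments and a value other than 0 in some profile. Tests used limma 3.58.1 in R 4.3.3, with 1 spread over both conditions and a prior trended on the number of fragments of a gene or on fragment length, and Benjamini-Hochberg adjustment over all genes or fragments. The labels call the replicates biological.

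The members and lists were chosen with earlier results of these data known. Genes named are the members, genes overlapping or next to them, the 3 most like each, and, of each list, those called, the highest and lowest in Suc and the largest difference each way; other named genes were chosen after their values were seen. Of the listed genes, slalom, Mex1 and Dl were not matched to the table. The alternatives were other scalings, filters and gene values, 1 prior variance, the replicate block and leaving out each profile. Pathway and marker values were drawn in Python 3.11.15 with pandas 2.3.3.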

Additional observations from a re-analysis of the deposited data

How the results depend on the processing

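No alternative called a difference between Pe and Suc at a member or its fragments. Of 252 comparisons of a member's value with an alternative, 220 kept direction and side of the threshold, 16 changed sign, 6 gained a call and 10 lost one. Replicate numbers were not used to pair profiles, because the labels tie no batch to them; over 13998 genes the differences between replicates of Pe and of Suc had a correlation of 0.285. With the replicate block 3 members were called in Suc, where htl was gained (limma adjusted p = 0.0345), and 3 in Pe, where bnl (limma adjusted p = 0.0216) and htl (limma adjusted p = 0.0163) were gained. All genes called rose with them, from 2981 to 4015 in Suc and from 1054 to 3291 in Pe. The block also gave 36 member fragments in Suc, of 10675 fragments called in all against 4537 without it. Members called in Suc numbered 1 with the median of the fragments (1010 genes called in all). In Pe they numbered 3 after quantile normalization (4412 genes), 2 with median and MAD scaling (3094), 0 with the median of the fragments (0) and 0 with fragments of no other gene (94). Member fragments called in Suc numbered 44 after quantile normalization (17511 fragments in all), 0 with median and MAD scaling (0) and 13 with fragments of at least 100 bp (3592), and in Pe 47 (17615) and 11 (1404) under those scalings. Counts of members thus moved with the counts over all genes and fragments. The cause was not tested.

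With the median of the fragments the Suc means were -0.070 at bnl, -0.032 at pyr and -0.048 at htl. The Pe mean of pyr was 0.025 after quantile normalization, 0.0017 with median and MAD scaling and 0.014 unweighted. The stumps difference was 0.040 after quantile normalization and 0.15 with median and MAD scaling. Leaving out 1 profile each gave 0 to 2 members called in Suc, 0 to 1 in Pe, and 0 to 0 member fragments in Suc. It gave Suc means of -0.00064 to 0.13 at bnl, -0.013 to 0.098 at pyr and -0.039 to 0.60 at htl, Pe means of -0.22 to 0.22 at pyr and -0.045 to 0.019 at ths, and differences of -0.27 to 0.18 at pyr and -0.0065 to 0.66 at htl. Depth is unknown, and 2 profiles a condition limit the precision.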

Other observations

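Along each gene the profiles can be compared fragment by fragment. The points share a gene, and neighbouring fragments share signal, so these correlations are descriptions only. Over the 41 fragments of btl, Suc replicate 1 had a correlation of 0.819 with Suc replicate 2, 0.816 with Pe replicate 1 and 0.190 with Pe replicate 2. Over the 156 fragments of bnl the same values were 0.846, 0.870 and 0.623, and over the 110 fragments of stumps 0.689, 0.832 and 0.465. At all 3 genes Pe replicate 2 was the least like Suc replicate 1. At htl, over 45 fragments, the Pe replicates had a correlation of 0.852, and Pe replicate 1 had 0.898 with Suc replicate 2.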
